A study of Mus musculus with 9 samples.

Results

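The genes described here are those of the Wnt signal: its ligands, the proteins that release them, their receptors, their secreted antagonists and the core of the cytoplasmic relay. They were taken from a table of postnatal day 10 mouse testis by gene name. Every gene named Wnt or Fzd plus a number was included, together with the Sfrp and Dkk antagonists, Frzb, Wif1, the co-receptors Lrp5 and Lrp6, R-spondins 1 to 3, Lgr4, Lgr5, Porcn, Wls, Ctnnb1, Axin1 and Axin2. This gave 51 genes of 23389 in the table, in 61 of its 29661 rows, since 7 of them have more than 1 transcript row. The rule uses gene names and no measured value.

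The testes came from C57BL/6 mice. The RNA-seq libraries were 3 labelled Lin28a knockout, whose titles carry the letters cKO, and 3 labelled wild type, while 3 further samples of LIN28A-bound RNA (CLIP) were not analysed here. No label names a Cre or its promoter, or says whether the libraries of a group are different animals. LIN28A binds RNA, holds back the let-7 microRNAs and marks undifferentiated spermatogonia in the postnatal testis.

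The table gives 1 FPKM value (fragments per kilobase of transcript, scaled to the size of the library) for each group, in columns named case and control, read from those names alone as knockout and wild type. Lin28a itself was at 23.4 FPKM in the case column, against 8.82 FPKM in the control column, 2.66-fold higher with p = 5.62e-07 in the authors' deposited table. No label says which stretch of the gene is deleted. A higher value in the case column runs counter to that reading, so the columns are called by their own names and every direction is one between columns. Values per library were not analysed, so no SD stands beside any FPKM value, and sequencing depth is unknown. Markers of Sertoli, Leydig, peritubular, endothelial, spermatogonial and meiotic cells were all detected. Of 6 epididymis and duct markers, Lcn5 and Lcn8 were at 0 in both columns, while Cst8, Crisp1, Lcn2 and Defb20 were above 0. Cst8 was at 17.6 FPKM (case) and 9.65 FPKM (control), and Crisp1 at 0.261 FPKM (case) and 2.27 FPKM (control).

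WNT proteins are lipid-modified secreted ligands. They bind Frizzled receptors together with LRP5 or LRP6, which stops a complex built on AXIN from destroying beta-catenin, so that beta-catenin can enter the nucleus and act with TCF/LEF factors. Secreted antagonists bind the ligands or the co-receptors, and R-spondins, through LGR receptors, strengthen the signal by keeping Frizzled proteins at the cell surface. In the mouse testis, Sertoli cells express Wnt6, and undifferentiated spermatogonia respond to WNT signals and express the target gene Axin2.

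Transcripts for each role in the pathway were detected in both columns, with Ctnnb1, Axin1, Wnt6 and Wls at the highest levels. Of the 51 genes, 31 had a mean FPKM of at least 1 over the columns and 20 did not. The antagonists Frzb, Sfrp1 and Sfrp2 and the ligand carrier Wls had higher values in the case column, and the antagonist Wif1 had a lower one there. None of these differences passed the authors' test: 0 of 29 genes with a tested highest row had a q-value under 0.05 in the authors' deposited table, where 0.0514% of tested rows did, and by highest row Frzb alone had an unadjusted p under 0.05, where 1.28% of tested rows did (0.646% with the higher value in the case column). The 31 genes past the floor were chosen on the mean of both columns, so a gene near the floor could pass through its higher column. In bulk testis, fewer cells of a type and less RNA per cell cannot be told apart.

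**Figure D1:**
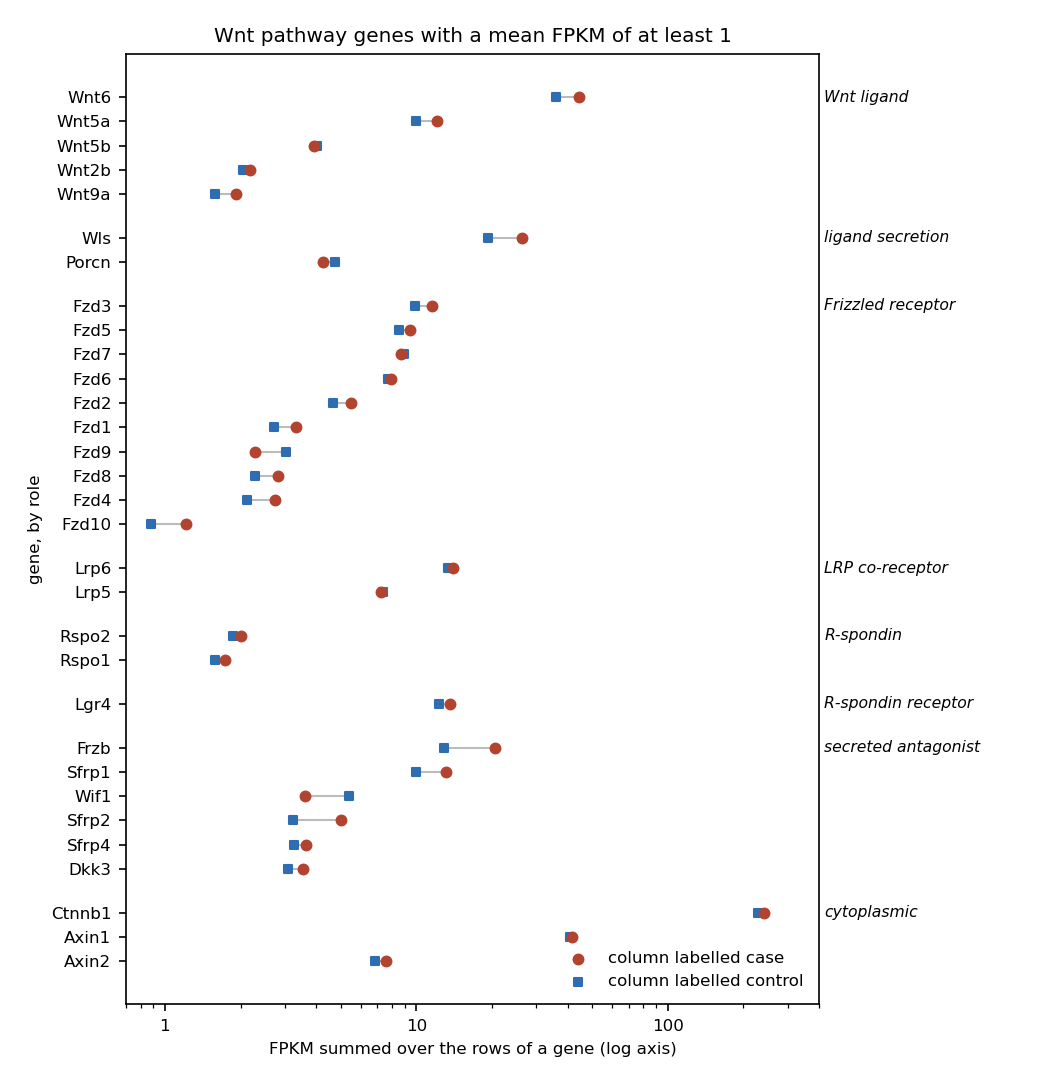
FPKM summed over transcript rows (x, log axis) for the 31 genes whose mean FPKM reached 1, grouped by role (y); red circles are the case column and blue squares the control column, 1 pooled value each. Ctnnb1 lies far to the right of all others, at 242 FPKM (case) and 228 FPKM (control), and Frzb, Sfrp2 and Wif1 show the widest gaps between the columns among genes above 2 FPKM in both.

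Among the 19 ligands, Wnt6 dominated. It was at 44.5 FPKM in the case column and 36.0 FPKM in the control column, 1.23-fold higher with p = 0.234 in the authors' deposited table. Wnt6 thus held 65.9% of the summed ligand FPKM in the case column and 64.4% in the control column. Its level lay above that of 85.8% of the 12665 genes whose mean FPKM reached 1.

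Wnt5a, the prototype ligand of the beta-catenin-independent branch, came next at 12.1 FPKM in the case column and 10.0 FPKM in the control column. Its close relative Wnt5b stood at 3.92 FPKM (case) and 4.02 FPKM (control). Wnt2b was at 2.18 FPKM in the case column against 2.05 FPKM in the control column, and Wnt9a at 1.92 FPKM (case) against 1.58 FPKM (control). Of these 5 ligands, 4 had the higher value in the case column, where 60.8% of all genes past the floor did, and their differences of log2(FPKM + 1), taken as case minus control, had a median of 0.18. Over all genes past the floor that median was 0.03.

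The other 14 ligands were under 1 FPKM in both columns. Wnt4, which in the fetal gonad takes part in ovarian development, was at 0.607 FPKM in the case column and 0.347 FPKM in the control column. Wnt2 was at 0.590 FPKM (case) and 0.298 FPKM (control), and Wnt3 at 0.443 FPKM (case) and 0.522 FPKM (control). The remaining 11 stood at or under 0.304 FPKM in either column, and Wnt1 was listed at 0 in both. At such levels the ratio of 2 values carries little weight, and none of the 14 was tested by the authors.

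In 2 of 4 pairs of ligand genes that sit side by side, 1 gene passed the floor and its neighbour was near 0. On mm10 chromosome 1, Wnt6 (74771892 to 74785319) and Wnt10a (74792019 to 74804175) are 6.70 kb apart, yet Wnt10a was at 0.145 FPKM in the case column and 0.0855 FPKM in the control column. On chromosome 11, Wnt3a and Wnt9a lie 16.2 kb apart, with Wnt9a past the floor and Wnt3a at 0.123 FPKM (case) and 0.0646 FPKM (control). Wnt9b and Wnt3, 24.4 kb apart on the same chromosome, and Wnt10b and Wnt1, 11.7 kb apart on chromosome 15, were all under 1 FPKM.

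The 2 genes of ligand release differed in direction. Wls, the carrier that brings WNT proteins to the cell surface, was at 26.4 FPKM in the case column and 19.3 FPKM in the control column. That is 1.37-fold higher, with p = 0.0965 in the authors' deposited table, the smallest p after that of Frzb among the tested highest rows of these genes. Porcn, the X-linked acyltransferase that attaches the lipid, was at 4.25 FPKM (case) and 4.75 FPKM (control), all of it in 1 of its 4 rows.

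All 10 Frizzled receptor genes passed the floor, at levels that differed far less than those of the ligands. Fzd3, known for its part in axon guidance and planar cell polarity, was highest at 11.5 FPKM in the case column and 9.89 FPKM in the control column (p = 0.374 in the authors' deposited table). Fzd5 was at 9.47 FPKM (case) and 8.51 FPKM (control), and Fzd7 at 8.67 FPKM (case) and 8.91 FPKM (control). Fzd6, which acts with Fzd3 in planar polarity, was at 7.90 FPKM (case) and 7.71 FPKM (control). These 4 receptors made up the upper tier in both columns.

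Lower in the family, Fzd2 was at 5.48 FPKM in the case column and 4.68 FPKM in the control column, and Fzd1 at 3.34 FPKM (case) and 2.72 FPKM (control). Fzd8 stood at 2.82 FPKM (case) and 2.28 FPKM (control). Fzd4, which also binds the non-WNT ligand Norrin, was at 2.73 FPKM (case) and 2.12 FPKM (control). Fzd10 was at 1.21 FPKM (case) and 0.883 FPKM (control), so it passed the floor through its higher column. The clearest exception in direction was Fzd9, at 2.28 FPKM in the case column against 3.04 FPKM in the control column, 1.33-fold lower (p = 0.410 in the authors' deposited table). Of the 10 receptors 8 had the higher value in the case column, where 60.8% of all genes past the floor did. After the control column was rescaled by the median ratio of all genes, 7 receptors did, with Fzd6 turning. Over all genes that rescaling gave 6344 higher and 6345 lower.

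The co-receptors had close values in the columns. Lrp6 was at 14.0 FPKM in the case column and 13.4 FPKM in the control column (p = 0.785 in the authors' deposited table), and Lrp5 at 7.24 FPKM (case) and 7.37 FPKM (control). Among the amplifiers, Rspo2 was at 2.01 FPKM (case) and 1.87 FPKM (control), with p = 0.827 in the authors' deposited table. Rspo1, which in the fetal gonad promotes ovarian fate, was at 1.73 FPKM (case) and 1.58 FPKM (control). Rspo3 was at 0.147 FPKM (case) and 0.0567 FPKM (control). The 2 LGR receptors were unlike each other in level: Lgr4 was at 13.6 FPKM in the case column and 12.3 FPKM in the control column (p = 0.582 in the authors' deposited table), while Lgr5, a stem cell marker of the intestine, was at 0.266 FPKM (case) and 0.298 FPKM (control).

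The secreted antagonists held the widest differences of the pathway, in both directions. Frzb (NM_011356; mm10 chromosome 2, 80411970 to 80447396), also known as sFRP3, which binds WNT proteins through a Frizzled-like domain, was at 20.6 FPKM in the case column and 12.9 FPKM in the control column. It was 1.59-fold higher, with p = 0.0174 and an adjusted q-value of 0.999966 in the authors' deposited table. Of all genes past the floor, 0.395% had a difference at least as large in that direction. Sfrp1, of the same family, was at 13.1 FPKM (case) and 9.96 FPKM (control), 1.32-fold higher.

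Sfrp2 was at 5.03 FPKM in the case column and 3.25 FPKM in the control column, 1.55-fold higher with p = 0.169 in the authors' deposited table. Sfrp4 was at 3.64 FPKM (case) and 3.26 FPKM (control), and Sfrp5, under the floor, at 0.215 FPKM (case) and 0.486 FPKM (control). Summed over Frzb and the 4 Sfrp genes, FPKM was 42.6 in the case column and 29.9 in the control column, a ratio of 1.43. All 10 antagonists summed to 50.4 FPKM (case) and 39.7 FPKM (control), a ratio of 1.27. The 4 genes of the Dkk family summed to 4.21 FPKM (case) and 4.41 FPKM (control), a ratio of 0.956. The direction of that sum came from Dkkl1, under the floor, at 0.448 FPKM (case) and 1.23 FPKM (control). Dkk3, the only Dkk gene past the floor, was higher in the case column, at 3.54 FPKM against 3.08 FPKM (control). The summed ligands gave 67.5 FPKM (case) and 55.9 FPKM (control), a ratio of 1.21, and the summed Frizzled receptors 55.4 FPKM (case) and 50.7 FPKM (control), a ratio of 1.09. None of these sums was tested.

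Wif1 (NM_011915; mm10 chromosome 10, 121034004 to 121100642), whose product binds WNT ligands through a domain of its own type, was the antagonist past the floor with the lower value in the case column. It was at 3.60 FPKM in that column against 5.42 FPKM in the control column, 1.504-fold lower with p = 0.176 in the authors' deposited table. Dkk3, the divergent member of the Dickkopf family, was at 3.54 FPKM (case) and 3.08 FPKM (control), and Dkk1 and Dkk2, the inhibitors that bind LRP5 and LRP6, were at or under 0.138 FPKM in either column. Dkkl1, a Dickkopf-like gene that mouse spermatocytes express, was at 0.448 FPKM in the case column and 1.23 FPKM in the control column (p = 0.114 in the authors' deposited table). Its mean lay under the floor.

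At a fold of at least 1.5, 2 genes past the floor, Frzb and Sfrp2, were higher in the case column, where 1.28% of all genes past the floor were. One gene, Wif1, was lower, where 1.4% of all genes were. Frzb, Sfrp2, Wls, Sfrp1 and Wnt6 lay above the 95th percentile of the difference over all genes, at 0.28 on the scale of log2(FPKM + 1), beyond which 5.01% of genes lie by construction. Wif1 and Fzd9 lay below the 5th percentile, at -0.24.

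**Figure D2:**
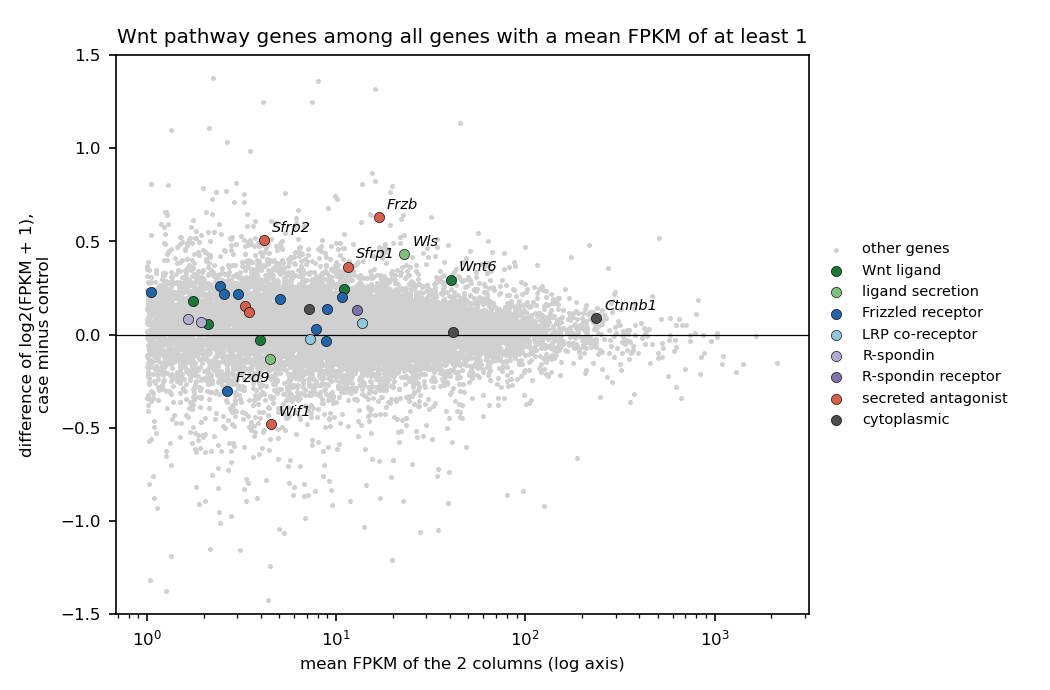
Difference of log2(FPKM + 1), case minus control (y), against the mean FPKM of the columns (x, log axis) for the 12665 genes whose mean FPKM reached 1, of which 15 fall outside the plotted range; grey points are other genes and coloured points Wnt pathway genes by role. Frzb (0.63), Sfrp2 (0.51), Wls (0.43), Sfrp1 (0.37) and Wnt6 (0.30) lie above the 95th percentile over all these genes (0.28). Wif1 (-0.48) and Fzd9 (-0.30) lie below the 5th percentile (-0.24), and the other Wnt pathway genes lie between.

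Marker lists of several cell types also differed between the columns, while the Sertoli list had a median close to that of all genes. For comparison, 60.8% of all genes past the floor had the higher value in the case column. After rescaling by the median ratio, 6344 of all genes were higher and 6345 lower. Of 10 peritubular myoid and stroma markers, 10 had the higher value in the case column (9 after rescaling by the median ratio), and they summed to 952 FPKM in that column and 829 FPKM in the control column. All 8 Leydig markers were higher, summing to 386 FPKM (case) and 305 FPKM (control), as were the 7 endothelial markers past the floor. The 8 endothelial markers listed summed to 42.8 FPKM (case) and 35.5 FPKM (control). The 8 meiotic germ cell markers were lower, at 160 FPKM (case) and 281 FPKM (control) in sum, with 6 of 7 tested at an unadjusted p under 0.05 in the authors' deposited table, where 0.631% of all tested rows were lower at that p. Of 10 Sertoli markers 5 were higher, with a median difference of 0.02 on the log2 scale against 0.03 over all genes. Their sums of 3677 FPKM (case) and 3895 FPKM (control) came mostly from Clu and Aard. Rhox5 alone of them had an unadjusted p under 0.05, at 8.90 FPKM (case) and 19.3 FPKM (control) (p = 0.0254 in the authors' deposited table). Among Leydig markers Hsd17b3 alone did, at 38.7 FPKM (case) and 24.6 FPKM (control) (p = 0.0302 in the authors' deposited table). Of 9 spermatogonial markers 2 were higher, with sums of 660 FPKM (case) and 713 FPKM (control). The 5 macrophage markers past the floor were lower, and the 6 in the table summed to 52.9 FPKM (case) and 68.0 FPKM (control). The epididymis and duct list, summing to 19.3 FPKM (case) and 12.5 FPKM (control), was the only one of these with markers at 0. Its 2 markers past the floor went opposite ways, Cst8 at 17.6 FPKM (case) and 9.65 FPKM (control) and Crisp1 at 0.261 FPKM (case) and 2.27 FPKM (control), the second with p = 0.00256 in the authors' deposited table. Crisp1 passed the floor only through its control column. The part of cell makeup in the values of Frzb, Sfrp1, Sfrp2, Wls, Wif1 and Dkkl1 was not tested.

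Promoter sequence is shown for the genes past the floor with the largest differences, Frzb, Sfrp2, Wls and Wif1, and for the leading ligand Wnt6. Each is the 250 bases before the start that RefSeq (GRCm38.p6) gives the gene, read 5′ to 3′ on the gene's strand. The window of Wls ends 45 bases short of the gene's start in the expression table, and those of the other genes adjoin it. In the sequences, capitals mark the GC box core CCGCCC or its reverse complement:
Frzb (chr2:80447397-80447646, minus strand): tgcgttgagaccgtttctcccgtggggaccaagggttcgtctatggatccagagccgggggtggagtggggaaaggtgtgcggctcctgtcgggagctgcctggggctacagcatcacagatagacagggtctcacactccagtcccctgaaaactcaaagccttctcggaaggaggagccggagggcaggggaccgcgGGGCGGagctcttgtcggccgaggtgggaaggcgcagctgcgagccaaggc
Sfrp2 (chr3:83766071-83766320, plus strand): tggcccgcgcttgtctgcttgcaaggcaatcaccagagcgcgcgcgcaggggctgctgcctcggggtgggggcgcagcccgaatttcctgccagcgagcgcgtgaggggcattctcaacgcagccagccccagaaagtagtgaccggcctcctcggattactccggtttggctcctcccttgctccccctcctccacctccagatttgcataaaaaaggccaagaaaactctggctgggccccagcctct
Wls (chr3:159839400-159839649, plus strand): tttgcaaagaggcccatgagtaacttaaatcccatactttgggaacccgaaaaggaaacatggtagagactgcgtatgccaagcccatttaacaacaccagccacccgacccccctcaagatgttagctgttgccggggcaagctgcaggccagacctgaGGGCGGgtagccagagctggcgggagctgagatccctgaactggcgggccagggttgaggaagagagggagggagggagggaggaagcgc
Wif1 (chr10:121033754-121034003, plus strand): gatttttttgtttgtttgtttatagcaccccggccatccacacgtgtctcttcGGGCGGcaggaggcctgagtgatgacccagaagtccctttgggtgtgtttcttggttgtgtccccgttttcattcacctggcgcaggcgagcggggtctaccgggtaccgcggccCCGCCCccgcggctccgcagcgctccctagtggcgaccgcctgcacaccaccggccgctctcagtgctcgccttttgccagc
Wnt6 (chr1:74771642-74771891, plus strand): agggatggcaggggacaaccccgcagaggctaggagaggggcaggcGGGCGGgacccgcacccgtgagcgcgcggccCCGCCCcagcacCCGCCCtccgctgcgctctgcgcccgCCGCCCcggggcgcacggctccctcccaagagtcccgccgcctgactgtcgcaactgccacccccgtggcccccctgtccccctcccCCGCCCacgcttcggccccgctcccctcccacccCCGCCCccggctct

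The 5 windows were rich in G and C, from 58.0% in Wls to 79.6% in Wnt6, against a median of 52.4% over all 32851 RefSeq windows of this length. Wnt6 held 28 CpG dinucleotides and 6 GC box cores, while Sfrp2 held 16 CpGs and no core. Frzb and Sfrp2 had the same number of CpGs and Wif1 had 21. RefSeq windows, 37 in all, were matched for 33 of the 51 genes. Their median content of G and C was 66.8%, above that of all the windows shown other than Wnt6, and 26 of the 37 (70.3%) had at least 1 GC box core, where 32.7% of all windows, which are poorer in G and C, did. The TCF/LEF letters CTTTGAA or CTTTGAT or CTTTGTA or CTTTGTT, searched on both strands, occurred in 4 of the 37 (10.8%), those of Dkk1, Fzd7, Wnt11 and Wnt5b, and in 14.8% of all windows. They were in none of the 5 windows shown, nor in that of Axin2, which says only that these letters are not in these bases.

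In the cytoplasm, Ctnnb1, which encodes beta-catenin, a protein of both the WNT relay and cadherin junctions, was at 242 FPKM in the case column and 228 FPKM in the control column. Its level lay above that of 99.01% of genes past the floor. Axin1, the scaffold of the complex that destroys beta-catenin, was at 41.5 FPKM (case) and 41.0 FPKM (control). Axin2, a scaffold that WNT signals induce as feedback, was at 7.61 FPKM (case) and 6.83 FPKM (control), 1.11-fold higher with p = 0.616 in the authors' deposited table. All 3 had the higher value in the case column, where 60.8% of all genes past the floor did. Axin1 turned after rescaling by the median ratio.

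**Figure D3:**
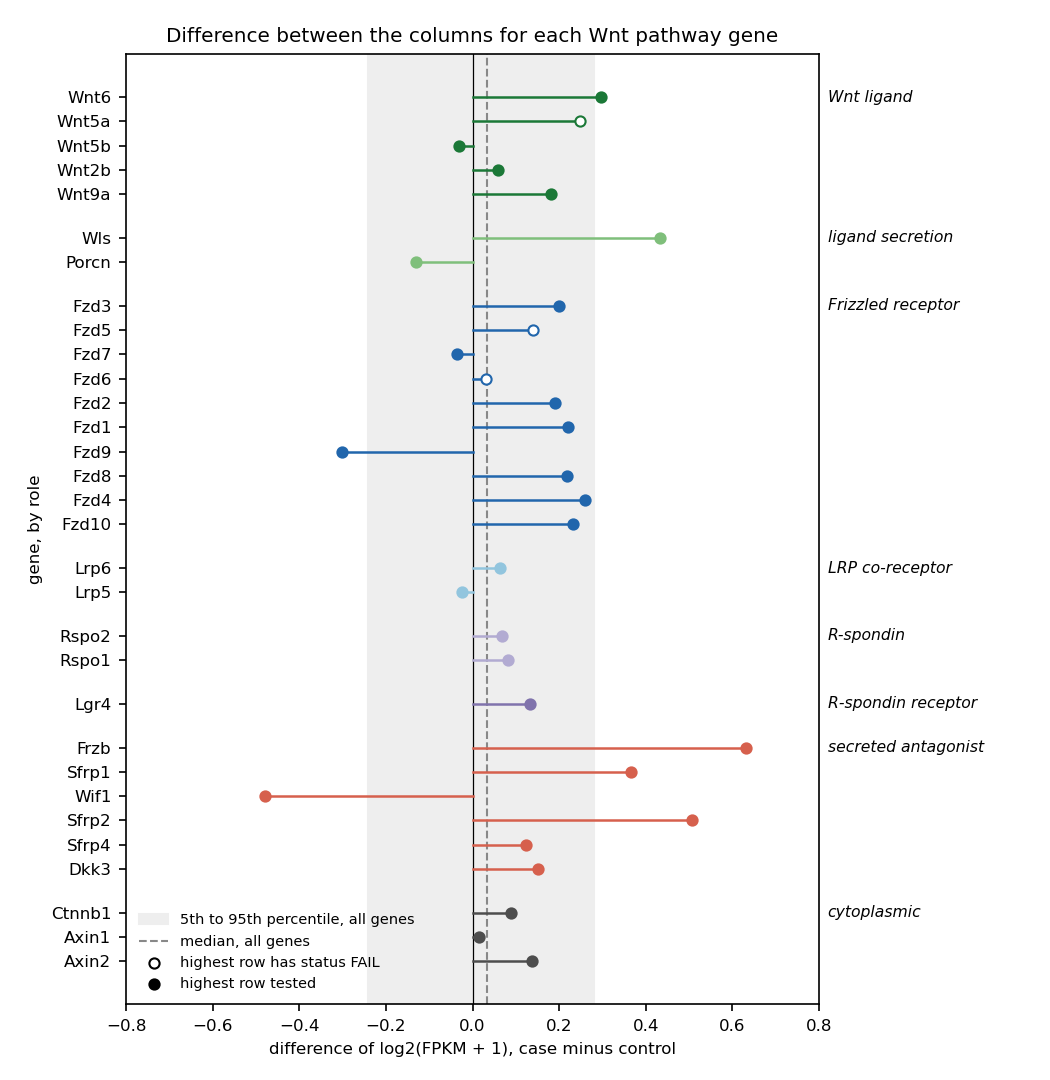
Difference of log2(FPKM + 1), case minus control (x), for each of the 31 genes past the floor, by role (y); open circles are genes whose highest row has status FAIL in the table, the grey band spans the 5th to 95th percentile over all genes past the floor (-0.24 to 0.28) and the dashed line is their median (0.03). Only Wnt6, Wls, Fzd9, Frzb, Sfrp1, Wif1 and Sfrp2 reach beyond the band. Of the 31 points 25 lie to the right of 0, as do 60.8% of all genes past the floor.

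Transcript rows told apart what the sums join. Ctnnb1 has 2 rows, and the minor one (NM_001165902) was at 20.8 FPKM in the case column and 13.3 FPKM in the control column, 1.56-fold higher with p = 0.0334 and an adjusted q-value of 0.999966 in the authors' deposited table. Its major row (NM_007614) was at 222 FPKM (case) and 215 FPKM (control), with p = 0.876 in the authors' deposited table. The minor row thus carried 8.57% of Ctnnb1 FPKM in the case column and 5.83% in the control column. Counted by row, 2 of 31 tested rows of these genes, those of Frzb and Ctnnb1, had an unadjusted p under 0.05 (6.45%), where 1.28% of all tested rows did. Both rows of Axin1 were level, at 32.6 FPKM (case) and 32.0 FPKM (control) for NM_001159598 and at 8.88 FPKM (case) and 9.01 FPKM (control) for NM_009733.

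In Fzd5, Fzd6 and Wnt5a the status of every row was FAIL, so the authors' deposited table holds no usable p for them. The Fzd6 rows ran in opposite directions, with NM_001162494 at 5.37 FPKM in the case column and 6.35 FPKM in the control column and NM_008056 at 2.53 FPKM (case) and 1.36 FPKM (control). The Fzd5 rows did so as well, with NM_022721 at 7.202 FPKM (case) and 5.68 FPKM (control) and NM_001042659 at 2.27 FPKM (case) and 2.82 FPKM (control). In Wnt5a both rows had the higher value in the case column, NM_009524 at 7.08 FPKM (case) and 6.46 FPKM (control) and NM_001256224 at 4.99 FPKM (case) and 3.55 FPKM (control). Rows of 1 gene share sequence, so the division of reads between them is an estimate.

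**Figure D4:**
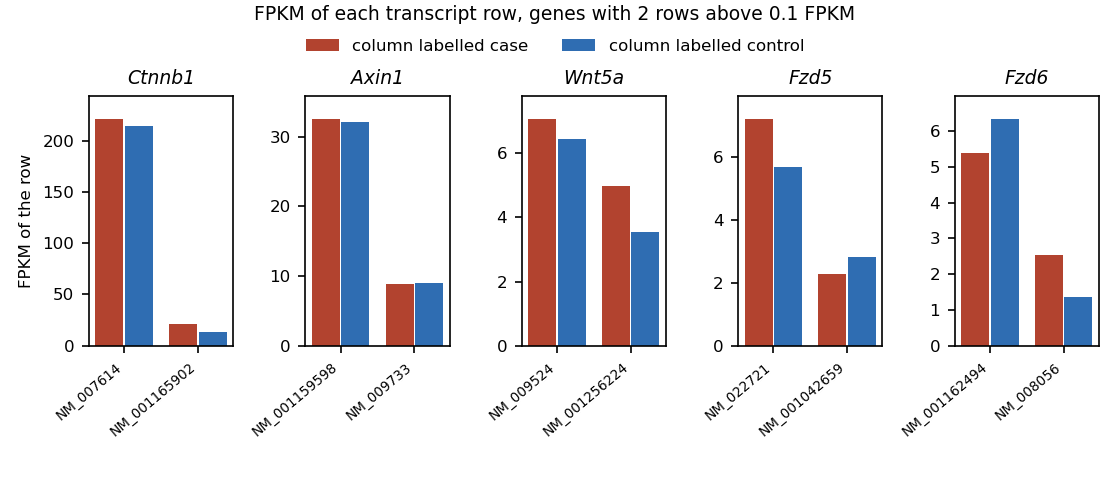
FPKM of each transcript row (y, linear axis from 0, a scale for each gene) for the 5 genes with 2 rows above 0.1 FPKM; red bars are the case column and blue bars the control column, 1 pooled value each. The minor Ctnnb1 row stands at 20.8 FPKM (case) and 13.3 FPKM (control) beside a nearly level major row, and the paired rows of Fzd5 and of Fzd6 differ in opposite directions.

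Other genes of the pathway were read from 4 lists, which share a few genes such as Tcf7, Lef1 and Apcdd1. Across the lists 0 tested genes passed a q-value of 0.05 and 0 had an unadjusted p under 0.05 in the authors' deposited table. Of 34 genes that relay the signal in the cytoplasm and nucleus, 33 passed the floor. Of these, 27 were higher in the case column (24 after rescaling), where 60.8% of all genes past the floor were. After rescaling, 6344 of all genes were higher and 6345 lower. The relay genes had a median difference of 0.08 on the scale of log2(FPKM + 1), against 0.03 over all genes. The relay genes with the smallest p were Cxxc4, an inhibitor of Dishevelled, at 1.68 FPKM (case) and 1.21 FPKM (control), Senp2, a SUMO protease, at 17.6 FPKM (case) and 19.8 FPKM (control), and Dvl3, a Dishevelled gene, at 17.0 FPKM (case) and 14.2 FPKM (control).

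Of 21 regulators at the membrane or outside the cell, 12 passed the floor. Of these, 9 were higher, where 60.8% of all genes past the floor were, with a median of 0.13 against 0.03. Apcdd1, a membrane inhibitor and WNT target, was at 6.73 FPKM in the case column and 5.19 FPKM in the control column (p = 0.311 in the authors' deposited table). Gpc3, a glypican, was at 33.9 FPKM (case) and 29.1 FPKM (control), and Shisa6 at 3.72 FPKM (case) and 3.11 FPKM (control). In the beta-catenin-independent branch, 25 of 26 listed genes were in the table, 21 passed the floor and 17 of these were higher (15 after rescaling), with a median of 0.12. Ror2, a receptor for WNT5A, went the other way at 1.75 FPKM (case) and 2.50 FPKM (control), with p = 0.257 in the authors' deposited table, while Rac1, a small GTPase, was at 97.9 FPKM (case) and 87.8 FPKM (control) and Daam2, a formin-type partner of Dishevelled, at 89.3 FPKM (case) and 79.7 FPKM (control).

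Of 20 WNT feedback and target genes, 11 passed the floor, and these 11 had the higher value in the case column, also after rescaling, where 60.8% of all genes past the floor did before it. Of the 9 under the floor 6 were lower in the case column and 2 higher, so the count of 11 holds only for genes past the floor. Among the 6 was Sp5, a target that was tested, at 0.940 FPKM (case) and 0.968 FPKM (control). The median difference of the 11 was 0.15 on the scale of log2(FPKM + 1). Besides Apcdd1, Nkd1, a feedback inhibitor of Dishevelled, was at 3.87 FPKM in the case column and 3.18 FPKM in the control column (p = 0.449 in the authors' deposited table). Lef1, a TCF/LEF factor that is itself a target, was at 1.19 FPKM (case) and 0.891 FPKM (control), past the floor through its higher column, with p = 0.502 in the authors' deposited table. Many of these genes answer to other signals too, and none of the 11 differed by 1.5-fold.

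Over the 31 Wnt genes past the floor, 25 had the higher value in the case column, where 60.8% of all genes past the floor did. Their median difference was 0.14, against 0.03 over all genes. After the control column was rescaled by the median ratio of the columns, 1.03, these counts were 23 higher and 8 lower, and those over all genes 6344 higher and 6345 lower. The differences between the 2 columns stand without replicate error.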

How the data were processed

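The authors deposited 1 table with a row per RefSeq transcript and FPKM values in 2 columns, case and control, each a single value for 3 RNA-seq libraries. Reads were aligned with TopHat2 2.0.9 to mm10 (per the submitters' processing notes), and no source used here names the program behind the FPKM values. Per the file headers, each row also has a status, a log2 ratio, a p-value and a q-value. The deposited log2 ratio is control over case in all 13586 tested rows above 0 in both columns, to within 5.01e-05, so every direction here was computed from the FPKM columns as case against control. The deposited q-values match a Benjamini-Hochberg adjustment over the 13629 rows with status OK. Rows with status FAIL hold no usable p-value and were not counted as tested. No source used here says how replicates entered that test.

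FPKM was summed over the rows of a gene, with symbols by accession from RefSeq (29072 rows matched). Genes were kept where their mean FPKM reached 1, and the difference of log2(FPKM + 1) was taken; the pseudocount of 1 understates the change of low genes. A gene's p and q are those of its row with the highest FPKM. Starts were read as counting from 0 and given 1 higher. Python 3.11.15 and pandas 2.3.3 were used, and the calculation was tested on simulated data. A limma fit would need a value for each library and was not run. Named were all genes of the pathway past the floor, those of the rest with 0.5 FPKM in a column, and from each list of other pathway genes the 3 with the smallest p; other low genes were named after their values were seen. The genes and lists were chosen with earlier results of these data known.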

Additional observations from a re-analysis of the deposited data

How the results depend on the processing

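Of 230 values of the 31 genes past the floor under 8 alternatives, 14 moved by over 0.1 on the log2 scale, mostly with a pseudocount of 5. The sign turned for 2 genes, Fzd6 and Axin1. With its highest row alone Fzd6 was at -0.20. The median over the Wnt genes stayed within 0.1 of 0.14 under each alternative run. The ligand median of 0.18 was 0.074 with a pseudocount of 5 and 0.039 with no filter. That of the antagonists (0.26) was 0.14 with no filter and 0.50 at a mean FPKM of at least 5, where 0.43 was the value for ligand release, of Wls alone. The co-receptor median of 0.02 was -0.01 after rescaling and -0.01 after quantile normalization. The counts past 1.5-fold, 2 genes above and 1 below control, were 6 and 2 at the smaller fold tried, 0 and 0 at a fold of 2, 1 and 0 at a mean FPKM of at least 5, and 8 and 3 with no filter, where genes near 0 FPKM enter. Against 0 genes at a q-value under 0.05, 1 had an unadjusted p under 0.05, and 2 did when any tested row was counted, an alternative chosen after seeing the data. No paired analysis was possible because no library has a column of its own, and for the same reason no library could be left out. Depth is unknown and gives no interval.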
